A study of Mus musculus with 6 samples.

Results

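NADPH oxidases and their subunits were measured in colon tumors of 2 genetically engineered mouse groups, and 9 such genes were chosen by name from the 19938 genes that had a probe set of their own. The choice was made with earlier results of these data known, including a Nox1 difference. The 9 genes were Nox1, Noxo1, Noxa1, Duox2 and Duoxa2 of the epithelium, Cybb and Ncf1 of phagocytes, the shared subunit Cyba, and Nox4. Each of the 9 had 1 probe set, and all 9 passed the filter on signal. The double knockout group (n = 3) carried CDX2P-G19Cre;Apcflox/flox;Tgfbr2flox/flox, the Apc knockout group (n = 3) carried CDX2P-G19Cre;Apcflox/flox, and all were labelled C57BL/6J and 3 weeks old, with 1 Affymetrix array per tumor. Floxed and Cre lines of more than 1 origin were crossed to make them. Nothing states that each tumor came from a different mouse, so p-values measure the spread between these samples. Both groups therefore carried the Cre transgene and the floxed Apc alleles, and differed by the floxed Tgfbr2 alleles. Cre was driven by a fragment of the human CDX2 promoter, which is active in colon epithelium, and became active at random after a frameshift reversion, so immune and stromal cells were not its targets. The tissue was cut out by laser from frozen sections. In such bulk RNA, fewer cells of a type and less RNA per cell cannot be told apart.

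NADPH oxidases carry electrons from NADPH across a membrane to oxygen, and release superoxide or hydrogen peroxide. In the colon, NOX1 makes superoxide at the surface of epithelial cells and needs the membrane partner p22phox (Cyba), the organizer NOXO1 and the activator NOXA1, whereas DUOX2 releases hydrogen peroxide and needs the maturation factor DUOXA2. In neutrophils and macrophages the catalytic subunit is CYBB, which pairs with the same p22phox and is switched on by cytosolic subunits such as NCF1 and NCF4 and by RAC2 when microbes are taken up.

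The upstream sequences of Nox1, the gene with the largest difference among the 9, and of Duox2 and Duoxa2, which start near each other on opposite strands, are shown because the text sets these epithelial genes side by side. Each is the 250 bases before the RefSeq start site in GRCm38.p6, 5′ to 3′ on the strand of the gene. Capitals mark matches, on either strand, to TATAAA (the TATA box), TTTATG (the core of the intestinal CDX factors), GGGCGG (the GC box), GAGGAA (the core of the myeloid factor PU.1) and CAGACA (a SMAD box). No marked match overlaps another. Nox1 lies at chrX:134111855-134112104 (minus strand), Duox2 at chr2:122298228-122298477 (minus strand) and Duoxa2 at chr2:122298650-122298899 (plus strand).
Nox1: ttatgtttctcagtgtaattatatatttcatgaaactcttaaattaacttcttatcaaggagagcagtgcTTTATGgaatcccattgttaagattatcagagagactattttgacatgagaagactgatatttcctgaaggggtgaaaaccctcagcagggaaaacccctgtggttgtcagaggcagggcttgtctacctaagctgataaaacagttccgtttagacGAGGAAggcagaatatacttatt
Duox2: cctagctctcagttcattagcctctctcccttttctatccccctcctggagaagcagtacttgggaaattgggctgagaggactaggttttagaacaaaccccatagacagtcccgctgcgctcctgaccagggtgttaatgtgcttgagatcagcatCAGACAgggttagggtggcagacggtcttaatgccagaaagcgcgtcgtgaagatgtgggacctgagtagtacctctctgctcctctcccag
Duoxa2: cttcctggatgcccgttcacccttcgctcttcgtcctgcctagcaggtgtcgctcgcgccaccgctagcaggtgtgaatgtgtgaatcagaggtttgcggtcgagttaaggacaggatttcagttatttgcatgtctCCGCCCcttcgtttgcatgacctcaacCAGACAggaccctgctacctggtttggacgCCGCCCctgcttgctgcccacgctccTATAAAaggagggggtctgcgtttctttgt
The start sites of Duox2 and Duoxa2 are 673 bases apart and point away from each other. The Nox1 window is 38.0% G and C and holds 1 CDX core, 180 bases before the start site, and 1 PU.1 core. The Duoxa2 window holds a TATA box 30 bases before the start site, 2 GC boxes and 1 SMAD box, and the Duox2 window holds 1 SMAD box. Of 32851 RefSeq windows of the same length, 12.4% hold a TATA box, 10.8% a CDX core, 32.7% a GC box, 23.3% a PU.1 core and 17.1% a SMAD box. These matches describe the letters only.

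Fold changes are on the log2 scale, double knockout minus Apc knockout, with limma's standard error (SE). For the targeted genes they were −0.67 (SE 0.19) for Tgfbr2 and −0.25 (SE 0.18) for Apc, and where their probes lie against the deleted exons was not examined. Median signals lay between 7.68 and 7.80 on the log2 scale. Double knockout tumor 2 stood apart, with correlations of 0.956 to 0.968 to the other tumors, against 0.980 to 0.988 among those 5. Its median of 8 smooth muscle markers was 1.77 above the mean over 6 tumors on the log2 scale, that of 12 colonocyte differentiation genes was 1.13 above, and that of 10 crypt and Wnt target genes was at −1.68. Of 8 epithelial markers 6 were higher and 2 lower in double knockout tumors, and in each direction the groups of 1 marker did not overlap. Epcam, Cdh1 and Krt8 had log2 signals of 12.33 or more in all 6 tumors, Krt18 was lower in all double knockout tumors (−0.41), and Cdx2 was at 8.24 in double knockout tumor 2 and 10.08 to 11.18 in the other 5.

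Nox1, the catalytic subunit of the colon epithelial oxidase, had the largest difference of the 9 genes and was 2.76-fold higher in double knockout tumors. Its log2 signal was 11.47, 11.31 and 11.34 in double knockout tumors 1 to 3, and 9.68, 11.02 and 9.02 in Apc knockout tumors 1 to 3. The double knockout tumors lay within 0.17 of each other, the Apc knockout tumors spread over 1.99, and the lowest double knockout tumor was 0.29 above the highest Apc knockout tumor. The means were 11.37 ± 0.09 and 9.90 ± 1.02 (SD, n = 3 each). The SD of Nox1 among Apc knockout tumors was larger than that of 99.4% of the 19506 probe sets tested, and the SD among double knockout tumors was larger than that of 21.8%. The log2 fold change was 1.47 (SE 0.48, 95% confidence interval 0.29 to 2.64), at rank 50 of all sets tested when ordered from the highest. It did not pass adjustment over all probe sets (adjusted p = 0.821 from limma; unadjusted limma p = 0.0220), and the two-sided exact permutation test gave p = 0.1, the smallest that 3 tumors against 3 allow. Nox1 was thus 1 of 9 genes under an unadjusted limma p of 0.05 and 1 of 9 whose groups did not overlap, where 5.6% and 12.2% of all probe sets tested did so (5.25% without overlap and higher, 6.94% without overlap and lower). No member passed the adjusted threshold, and 0% of all sets did.
The size of the Nox1 difference varied most with the Apc knockout tumor left out. It was 2.04-fold when Apc knockout tumor 3 was left out, 2.55-fold when tumor 1 was and 4.06-fold when tumor 2 was. Leaving out double knockout tumor 2, which stood apart, gave 2.83-fold, and leaving out tumors 1 and 3 of that group in turn gave 2.67-fold and 2.80-fold. The unadjusted limma value stayed under 0.05 when Apc knockout tumor 2 or double knockout tumor 2 or 3 was left out, and was above 0.05 in the other 3 cases. The test named in the methods, run on the same values, gave Nox1 an unadjusted p of 0.0676 and an adjusted p of 0.857. With weights per array, whose estimate did not converge, Nox1 (adjusted p = 0.0135 by limma) and Cyba (0.0240) were called. The same weights called 2744 of the 19506 probe sets tested, against 0 in the main setting, so these calls do not single out the 2 genes.

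**Figure D1:**
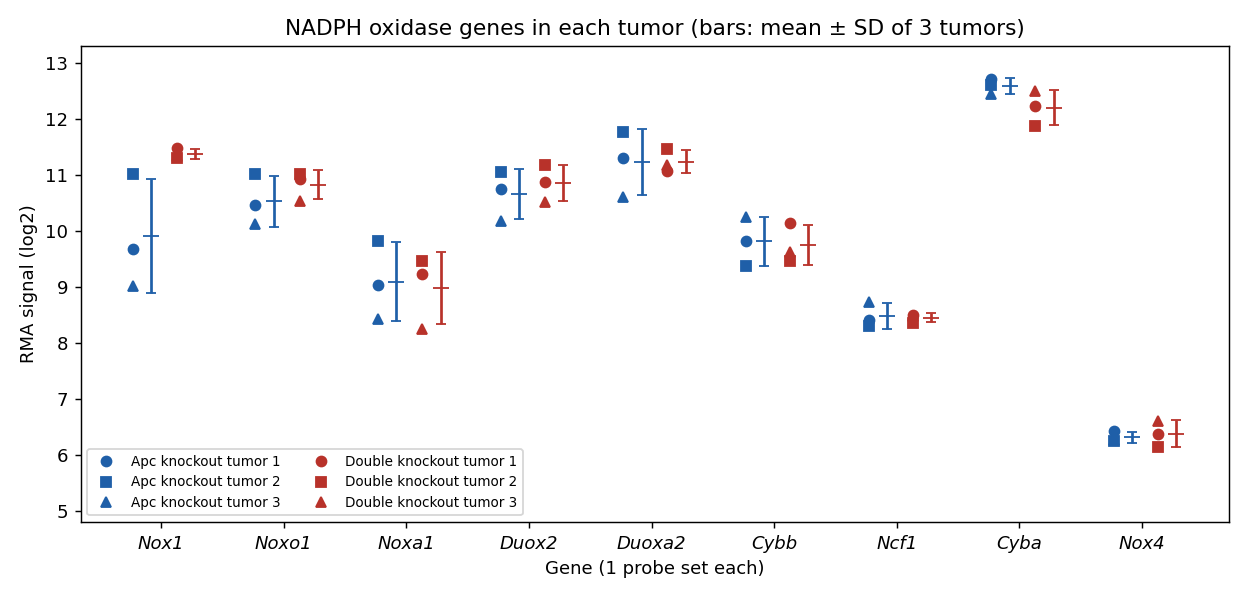
Vertical axis, log2 RMA signal of the 9 NADPH oxidase genes (horizontal axis), 1 point per tumor, for Apc knockout (blue) and double knockout (red) tumors, with symbols for tumors 1, 2 and 3 and bars for the mean ± SD of 3 tumors. The groups are apart for Nox1, where double knockout tumors sit at 11.31 to 11.47 and Apc knockout tumors at 9.02 to 11.02, and overlap for the other 8 genes.

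The cytosolic partners of NOX1 did not share its separation between the groups. Noxo1, the organizer, had log2 signals of 10.92, 11.02 and 10.52 in the double knockout group, against 10.46, 11.01 and 10.11 in Apc knockout tumors 1 to 3. The groups overlapped, since Apc knockout tumor 2 lay just under the highest double knockout tumor, and the log2 fold change was 0.29 (SE 0.26, adjusted p = 0.836 by limma). That tumor was the only Apc knockout tumor within the double knockout range of Noxo1, so leaving it out had to end the overlap. Without it the log2 fold change of Noxo1 was 0.53 (adjusted p = 0.782 by limma). Noxa1, the activator, was at 9.23, 9.46 and 8.25 in the double knockout group, against 9.04, 9.82 and 8.42 in Apc knockout tumors. Its lowest value was in double knockout tumor 3 and its highest in Apc knockout tumor 2, and the spread was wide in each (SD 0.64 and 0.70, n = 3 each). The log2 fold change of Noxa1 was −0.11 (SE 0.45, 95% confidence interval −1.21 to 0.98, adjusted p = 0.963 by limma), and turned to 0.25 without Apc knockout tumor 2 and to 0.25 without double knockout tumor 3.

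Duox2 and Duoxa2, the peroxide-releasing oxidase and its maturation factor, were close between the groups. Duox2 had log2 signals of 10.88, 11.17 and 10.52 in the double knockout group, against 10.75, 11.05 and 10.17 in Apc knockout tumors 1 to 3. Its log2 fold change was 0.20 (SE 0.27, adjusted p = 0.887 by limma), with a 95% confidence interval of −0.46 to 0.86, and was −0.047 without Apc knockout tumor 3. Duoxa2 was at 11.07, 11.46 and 11.18 in the double knockout group, against 11.30, 11.77 and 10.60 in Apc knockout tumors. Its double knockout tumors lay between Apc knockout tumors 2 and 3, and the log2 fold change was 0.01 (SE 0.30, 95% confidence interval −0.72 to 0.75, adjusted p = 0.995 by limma), at −0.019 after a further quantile normalization. The neighboring genes Duox1 and Duoxa1 are a second such pair, with start sites 1942 bases apart. Duox1 ranked above 24.7% to 30.1% of sets on the arrays and Duoxa1 above 36.5% to 42.6%, while Duox2 ranked above 83.7% to 92.2% and Duoxa2 above 88.3% to 95.5%. Probe sets differ in how strongly they bind, so these ranks place each set on its array and do not compare the genes. Duox1 and Duox2 are similar in sequence, and cross-hybridization between their probes was not tested.

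Cybb and Ncf1, the catalytic and organizer subunits of the phagocyte oxidase, differed little between the groups. Cybb had log2 signals of 10.14, 9.47 and 9.62 in the double knockout group, against 9.83, 9.37 and 10.24 in Apc knockout tumors 1 to 3. The highest and the lowest value were both in the Apc knockout group, and the log2 fold change was −0.07 (SE 0.27, 95% confidence interval −0.74 to 0.60, adjusted p = 0.963 by limma). Ncf1 was at 8.50, 8.36 and 8.49 in the double knockout group, against 8.41, 8.29 and 8.74 in Apc knockout tumors. Its log2 fold change was −0.03 (SE 0.14, 95% confidence interval −0.38 to 0.31, adjusted p = 0.969 by limma), and was 0.0029 after median centring and 0.012 after a further quantile normalization. Without double knockout tumor 2 both genes were slightly above 0, at 0.069 for Cybb and 0.015 for Ncf1.
Ncf4, a further cytosolic subunit of the phagocyte oxidase, was at 8.28, 8.08 and 7.90 in the double knockout group, against 8.34, 8.63 and 8.61 in Apc knockout tumors. All double knockout tumors were lower, by a log2 fold change of −0.44 (SE 0.15, adjusted p = 0.821 and unadjusted p = 0.0230 by limma). Among 11 oxidase genes tested outside the 9 members, Ncf4 alone had groups that did not overlap, against 12.2% of all probe sets tested. Markers of the cells that carry the phagocyte oxidase are given here as measured values, and their part in these results was not tested. Of 12 neutrophil markers 11 were measured, and 11 of 11 had lower mean signals in double knockout tumors (10 of 11 after median centring or quantile normalization). Of all probe sets tested, 52.3% were higher. The mean log2 signals of the list were 7.20 to 8.22 against 8.30 to 9.30. Only 2 of the 11 were lower without overlap, where 6.94% of all probe sets tested were, and 0 passed adjustment. With each gene centred on its mean, the list median was 0.05 in double knockout tumor 2 and −0.09 in Apc knockout tumor 3, so on that measure the groups overlapped. Of 12 macrophage markers 5 were higher and 7 lower, with mean log2 signals of 8.93 to 9.54 against 9.10 to 9.50.

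Cyba, the membrane subunit that NOX1 and CYBB share, had the second largest difference of the 9 genes and a lower signal in double knockout tumors. It was at 12.23, 11.88 and 12.49 in the double knockout group, against 12.72, 12.60 and 12.44 in Apc knockout tumors 1 to 3. Double knockout tumor 2 was the lowest, and double knockout tumor 3 was above Apc knockout tumor 3, so the groups overlapped. The log2 fold change was −0.39 (SE 0.18, 95% confidence interval −0.82 to 0.05, adjusted p = 0.821 by limma). When double knockout tumor 2 was left out it was −0.22, and when tumor 3 was left out it was −0.53. Tumor 3 was the only double knockout tumor above an Apc knockout tumor, so leaving it out had to end the overlap. Nox4, an oxidase that makes hydrogen peroxide without cytosolic activators, ranked above only 24.0% to 30.9% of sets on the arrays. Its log2 signal was 6.38, 6.14 and 6.62 in the double knockout group, against 6.43, 6.25 and 6.26 in Apc knockout tumors, with a log2 fold change of 0.07 (SE 0.15, adjusted p = 0.927 by limma). The share of background in signals this low is not known.

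**Figure D2:**
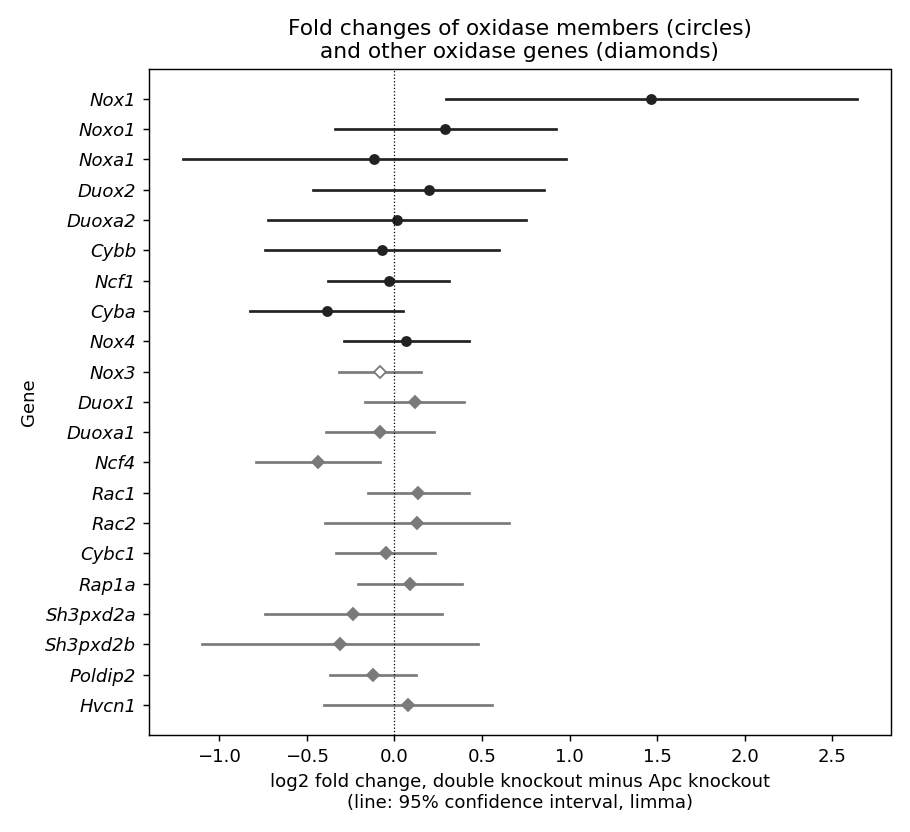
Log2 fold change, double knockout minus Apc knockout (horizontal axis), of the 9 oxidase members (black circles) and 12 other oxidase genes (grey diamonds), with 95% confidence intervals from limma (3 tumors per group). The open diamond is Nox3, whose mean was under the filter on signal and whose interval comes from the fit on all probe sets. The intervals of Nox1 (0.29 to 2.64) and Ncf4 lie on 1 side of 0, and those of the other genes include 0.

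Over the 9 genes, 5 had higher and 4 lower mean signals in the double knockout group, and their median fold change on the log2 scale was 0.01, equal to the median of 0.01 over all probe sets tested. Of the 5 epithelial genes 4 were higher and 1 lower (3 and 2 after a further quantile normalization), and both phagocyte genes were lower (1 of 2 after median centring or quantile normalization). The difference in fold change between counterparts of the epithelial and the phagocyte oxidase was tested over tumors. The log2 difference Nox1 minus Cybb was 1.33, 1.84 and 1.71 in the double knockout group, against −0.15, 1.64 and −1.22 in Apc knockout tumors 1 to 3. Apc knockout tumor 2 was above double knockout tumor 1, and the mean shifted by 1.54 (SE 0.85; two-sided exact permutation test, p = 0.2, adjusted p = 0.4 over 2 pairs). Noxo1 minus Ncf1, the organizers, shifted by 0.32 (SE 0.43; exact permutation test, p = 0.7, adjusted p = 0.7).

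Within the Apc knockout group, the order of the tumors was alike for the epithelial genes and ran the other way for the phagocyte genes. This did not hold in the double knockout group. There tumor 2 was the highest for Noxo1, Noxa1, Duox2 and Duoxa2, while Nox1, Cybb and Ncf1 were highest in tumor 1 and lowest in tumor 2. Apc knockout tumor 3 was the lowest of 6 tumors for Nox1, Noxo1, Duox2 and Duoxa2 (4 of the 5 epithelial genes) and the highest for both Cybb and Ncf1. Apc knockout tumor 2 was the highest or second highest for Noxo1, Noxa1, Duox2 and Duoxa2, and the lowest for both Cybb and Ncf1. Nox1 departed from the other epithelial genes in double knockout tumor 3, where it was 0.70 above its mean over 6 tumors on the log2 scale while Noxo1, Noxa1, Duox2 and Duoxa2 were at −0.15, −0.79, −0.24 and −0.05. It did so too in Apc knockout tumor 1, at −0.96 against −0.21 to 0.07 for the other 4. Markers of epithelium were low in the tumor where the epithelial genes were low. The mean log2 signal of 8 epithelial markers was 11.75 in Apc knockout tumor 3 and 12.07 to 12.20 in the other 5 tumors, and its part in the pattern was not tested. Relative to these 8 markers in the same tumor, the log2 fold change of Nox1 was 1.34 (SE 0.38), that of Noxo1 was 0.17, that of Noxa1 was −0.24, that of Duox2 was 0.071 and that of Duoxa2 was −0.11. On the same scale Cyba was at −0.51.

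**Figure D3:**
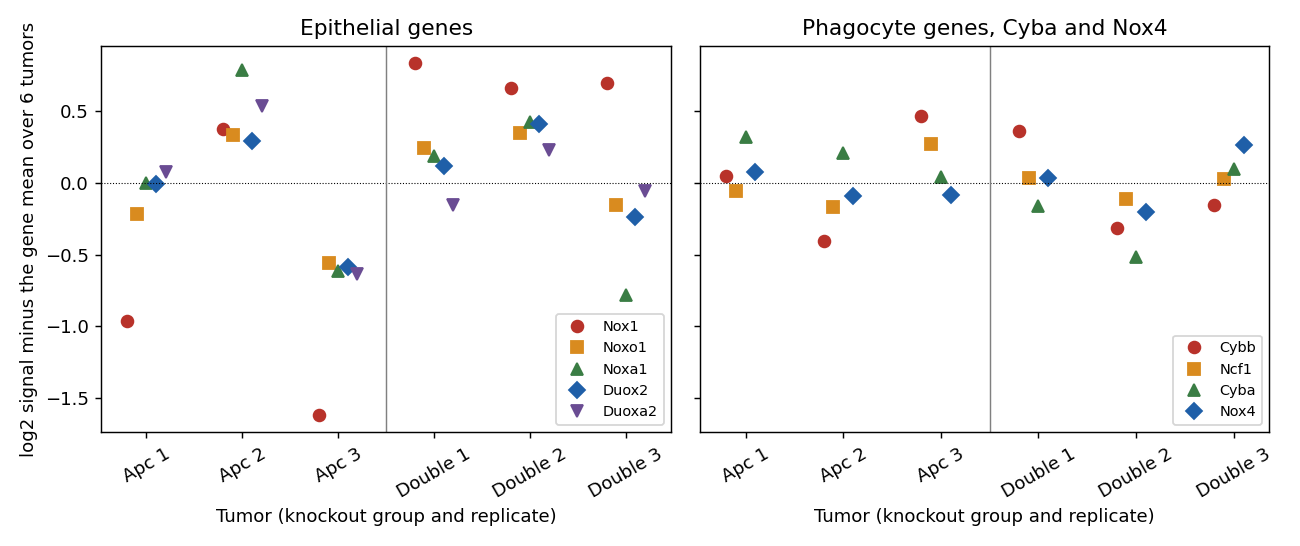
Log2 signal of each gene minus its mean over 6 tumors (vertical axis) in each tumor (horizontal axis; Apc knockout left and double knockout right of the line), for epithelial genes (left) and for phagocyte genes, Cyba and Nox4 (right). Apc knockout tumor 3 has the lowest points of Nox1 (−1.62), Noxo1, Duox2 and Duoxa2 and the highest of Cybb (0.47) and Ncf1 (0.27).

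Genes with profiles most like those of Nox1, Duox2 and Cybb were found by the root mean square difference of log2 signals over the 6 tumors, each gene centred on its own mean, among 16783 other genes. Nearest to Nox1 were Radx (0.25), Slc16a1, a transporter of lactate and butyrate (0.35), Dapk2, a death-associated kinase (0.44), Ihh, the hedgehog ligand of colonocytes (0.45), and Enpp3, an ectonucleotidase (0.47). The second of them, Slc16a1, was at 11.07, 11.39 and 10.92 in the double knockout group, against 10.16, 10.87 and 9.42 in Apc knockout tumors. Among the other members Noxo1 was the closest to Nox1, at rank 207 (0.69), followed by Duox2 at rank 555 (0.76) and Duoxa2 at rank 1006 (0.80). Noxa1, also an epithelial gene, was further off at rank 3646 (0.89), Nox4 was at rank 6095 (0.93) and Cybb at rank 14824 (1.15).
Nearest to Duox2 were Cdh17, the intestinal cadherin (0.08), Prkab1, a subunit of AMP kinase (0.08), Ggact (0.10), Kif21a (0.10) and Ss18l2 (0.10). Noxo1 was at rank 12 (0.11), Duoxa2, the genomic neighbor of Duox2, at rank 277 (0.19) and Noxa1 at rank 2977 (0.30). Nearest to Cybb were Tbx2 (0.06), Mpeg1, the perforin-like protein of macrophages (0.08), Capns2 (0.10), C3ar1, the receptor of complement C3a on myeloid cells (0.10), and Irf5, a transcription factor of macrophages (0.10). Ncf1 was at rank 313 (0.22), Ncf4 at rank 7625 and Cyba at rank 10617. These distances describe 6 tumors that share the groups, and carry no test.

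The other oxidase genes, peroxidases, antioxidant enzymes and enzymes that supply NADPH were described as lists. Of 12 other oxidase genes measured 11 were tested, with 5 higher and 7 lower of the 12 and a median log2 fold change of −0.07, against 0.01 over all probe sets. Apart from Ncf4, their fold changes were between −0.31 (Sh3pxd2b, an adaptor of invadopodia) and 0.14 (Rac1, the small GTPase that NOX1 uses). Rac2, the GTPase of the phagocyte oxidase, was at 0.13 (SE 0.21), Hvcn1, the proton channel that balances its charge, at 0.08, Cybc1, the chaperone of CYBB, at −0.05, Rap1a at 0.09, Poldip2, a partner of NOX4, at −0.12, Sh3pxd2a at −0.24, Duox1 at 0.12 and Duoxa1 at −0.08. Nox3, the oxidase of the inner ear, was at 5.42 to 5.62 in all tumors, below the filter. The peroxidases Lpo, Mpo and Epx were at −0.10, 0.00 and 0.23.
Of 22 antioxidant enzymes 20 were measured, 14 higher and 6 lower (13 and 7 after a further quantile normalization), with a median of 0.08. Without double knockout tumor 2 that median was −0.046. The 4 with the smallest limma p were Gpx1, a glutathione peroxidase (0.36, standard error 0.14, adjusted p = 0.821 by limma), Prdx3, the mitochondrial peroxiredoxin (0.40), Gpx3, the secreted glutathione peroxidase (−0.55), and Gclm, a subunit of the enzyme that starts glutathione synthesis (0.53). Gpx1 was at 11.74, 11.60 and 11.90 in the double knockout group, against 11.58, 11.37 and 11.20 in Apc knockout tumors, and its groups did not overlap. Of the 20 antioxidant enzymes 3 (Gpx1, Sod1 and Gclm) were higher without overlap and 0 lower. Of all probe sets tested, 5.25% were higher and 6.94% lower without overlap. Pgd, an NADPH-producing enzyme of the pentose phosphate pathway, was at 12.24, 12.30 and 12.39 in the double knockout group, against 11.88, 12.17 and 11.66 in Apc knockout tumors. All double knockout tumors were higher, with a log2 fold change of 0.41 (SE 0.15, adjusted p = 0.821 by limma). The other NADPH-producing enzymes, Idh1 and Me1, were at 0.36 and 0.04, with groups that overlapped. Of these 38 related genes, 37 were tested, 2 were higher and 1 was lower at an unadjusted limma p under 0.05, where 1.78% and 3.82% of all probe sets were, and 0 passed adjustment at 0.05 by limma.

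**Figure D4:**
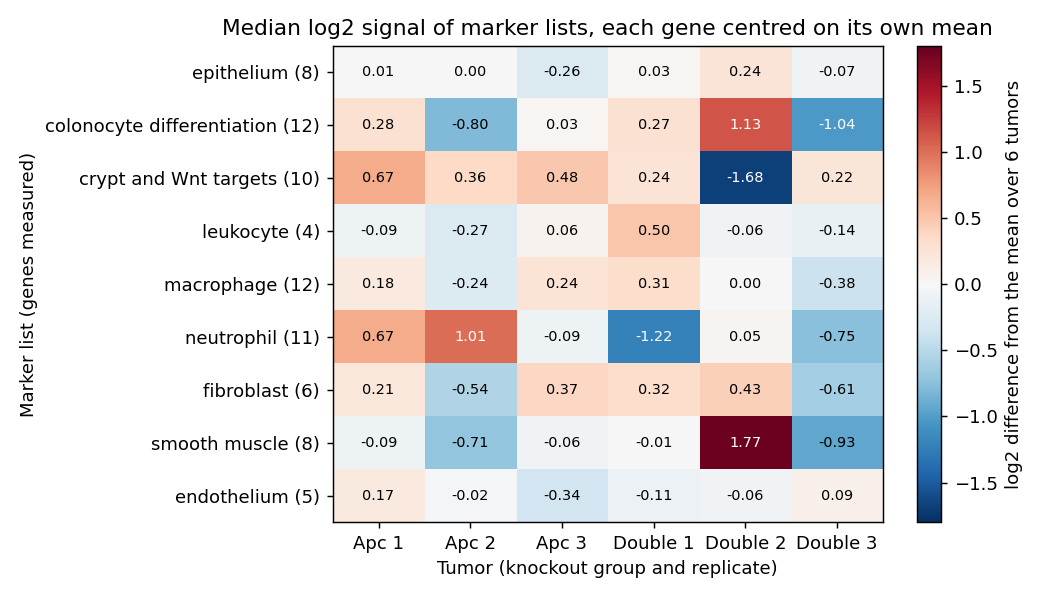
Median log2 signal of each marker list (rows, with the number of genes measured) in each tumor (columns), after each gene was centred on its mean over 6 tumors. Red is above and blue below that mean. Double knockout tumor 2 has the highest smooth muscle (1.77) and the lowest crypt and Wnt target values (−1.68), and the epithelium row is lowest in Apc knockout tumor 3 (−0.26).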

How the data were processed

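RNA of 3 double knockout and 3 Apc knockout laser-dissected colon tumors was hybridized to Affymetrix Mouse Gene 1.0 ST arrays. The authors processed the arrays with RMA in GeneSpring GX, per the methods and the submitters' processing notes, and deposited log2 signals after background correction and quantile normalization. For the RMA version and the annotation build, nothing was given in the sources used here. Probe sets were named from the platform annotation (21789 of 35556 with 1 symbol, 1621 with several, 12146 with none), and of a gene with several sets the one with the highest mean was used. Promoter sequences are from RefSeq, GRCm38.p6. The files' build was not needed for any value.

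The 19506 probe sets that had a symbol and whose mean reached the 20th percentile of all means (5.88) were tested with limma 3.58.1 in R 4.3.3, two-sided and with no covariate, and p-values were adjusted over all sets (Benjamini-Hochberg). The methods' cut-off of 20% on reproducibility was an alternative, as a coefficient of variation. Confidence intervals (95%) are from the same fit. The exact permutation test used all 20 splits of the tumors. The fit was tested on simulated data. Precision is limited by having 3 arrays per group. The labels give no batch.

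The members and gene lists were chosen with earlier results of these data known, including a Nox1 difference. The text names the 9 members, the other oxidase genes, the 4 genes with the smallest limma p of each related list, the 5 genes most alike in profile to Nox1, Duox2 and Cybb, and the targeted genes. G6pdx, Prdx5, Prdx6 and Fpr1 were listed but not analysed here, and 1 further item is not reported here. Alternatives were other filters, scalings, variance models, weights per array, a block on replicate number, the methods' t-test, and each tumor left out in turn. Signals relative to epithelial markers were added after the data were seen.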

Additional observations from a re-analysis of the deposited data

How the results depend on the processing

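The direction of Nox1, Noxo1 and Cyba was the same in all alternatives that tested them. The log2 fold change of Nox1 was 1.34 to 1.73 over other settings and 1.03 to 2.02 with 1 tumor left out. Leaving out 1 tumor gave 0.08 to 0.53 for Noxo1, −0.45 to 0.25 for Noxa1, −0.047 to 0.39 for Duox2, −0.30 to 0.29 for Duoxa2, −0.29 to 0.14 for Cybb, −0.12 to 0.097 for Ncf1, −0.53 to −0.22 for Cyba and −0.051 to 0.19 for Nox4, so the direction of Noxa1, Duox2, Duoxa2, Cybb, Ncf1 and Nox4 is not settled. The shift of Noxo1 minus Ncf1 was −0.013 to 0.66 and that of Nox1 minus Cybb 0.88 to 2.31. Reversed values were −0.019 for Duoxa2 and 0.012 for Ncf1 after a further quantile normalization, 0.0029 for Ncf1 after median centring, and −0.11 for Duoxa2 and −0.059 for Nox4 relative to epithelial markers.

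Array weights ranged from 0.208 (double knockout tumor 2) to 6.86 (double knockout tumor 1), from an estimate that did not converge. They made 2744 calls over all probe sets and gave 6578 an unadjusted p under 0.05. They called 2 members, Nox1 (1.73, adjusted p = 0.0135) and Cyba (−0.44, adjusted p = 0.0240, limma for both), gave 3 members an unadjusted p under 0.05, called 4 related genes and put 9 of them lower at an unadjusted p under 0.05. They reversed Noxa1 (0.10), Duoxa2 (−0.20), Cybb (0.26), Ncf1 (0.072) and Nox4 (−0.0073).

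At an unadjusted p under 0.05 the count of members was 1 in the main setting, 0 in the methods' t-test, where Nox1 was above the threshold, 0 when sets were filtered by coefficient of variation, which left Ncf1 and Nox4 of the members, and 0 to 2 with 1 tumor left out. Members whose groups did not overlap numbered 0 with that filter and 1 to 2 with 1 tumor left out. Among the sets that this filter kept, 105 were called at an adjusted limma p under 0.05, against 0 in the main setting. The filter keeps sets by their small spread within the groups of these same arrays, so these counts are not like for like. Related genes at an unadjusted p under 0.05 were 0 higher in the methods' t-test, 1 higher after a further quantile normalization and 0 to 2 higher with 1 tumor left out. Over all probe sets tested 1092 had an unadjusted limma p under 0.05, and 677 to 1716 with 1 tumor left out. Without the filter on signal there were 1265, and 1771 when unnamed sets were included as well.

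With the replicate number as a block, the unadjusted p of Nox1 was 0.0221 and its log2 fold change 1.47, and 0 related genes were higher and 0 lower at an unadjusted p under 0.05. Deviations of same-numbered tumors correlated at −0.20, −0.06 and 0.09, and those of differently numbered tumors at −0.21 to 0.26. With 3 tumors per group these values cannot show whether same-numbered tumors shared an origin or a batch. The cause of these changes was not tested.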
